A study of Mus musculus with 12 samples.

Results

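Cultured mouse cortical neurons that received mutant huntingtin were compared gene by gene with neurons of the same preparations that received a control vector. The neurons came from Swiss Webster embryos at embryonic day 16, were infected with lentivirus after 5 days in culture and were harvested for total RNA, depleted of ribosomal RNA, after 10 days. In 4 libraries the virus carried exon 1 of huntingtin with 72 glutamines (Htt-72Q), and in 4 libraries it was a control vector, whose infection label reads empty vector in 3 of them. These are 8 of the 12 libraries of the series; the other 4 received exon 1 with 25 glutamines (Htt-25Q). Every control library was paired with the Htt-72Q library that carries the same preparation number (22, 24, 26 or 27_1), which gave 4 full pairs. All groups share the culture, the age and a lentiviral infection. The labels used here do not give the promoter that drives the construct, the share of infected cells, the number of embryos pooled or what a preparation number stands for, so the p-values measure the spread between these 4 pairs.

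Huntingtin is a large cytoplasmic scaffold protein, and a long run of glutamines near its start causes Huntington disease. The first exon alone, with a long run, forms aggregates in the cytoplasm and nucleus and disturbs transcription in neurons. Cortical neurons in culture depend on calcium entry, cyclic nucleotides and small GTPases to couple activity to gene expression, and on adhesion molecules and matrix to hold synapses in place.

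Total counts per library ranged from 12668531 to 23357966 in control vector and from 12439335 to 20040985 in Htt-72Q. The groups came apart on the leading principal component, which held 46.8% of the variance. A second difference crosses them: in 3 libraries (control 22, control 26 and Htt-72Q 26) Ctnnd1, the gene of the junction protein p120 catenin, had 25 to 31.6 CPM (counts scaled to a common library total), and in the other 5 it had 14.2 to 17.7. Preparation 22 is the only pair whose libraries fall on different sides of this gap. Without it, 3774 genes passed the test, against 4271 with all 4 pairs. With the class as a term in place of the preparation 2515 did, against 2595 with neither term. The mouse gene Htt (chromosome 5, 34761740 to 34912534, plus strand, GRCm38, the build of all positions here) lay at 241, 123, 89.8 and 125 TMM-scaled CPM in the control libraries of preparations 22, 24, 26 and 27_1, and at 214, 176, 128 and 157 CPM in the Htt-72Q libraries in the same order, which is the order of all values given per library. The groups overlapped. The fitted log2 difference was 0.30 ± 0.13 (adjusted p = 0.108), or 0.45 without preparation 22 (adjusted p = 0.00921). Whether reads of the construct can align to the mouse gene is not known.

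Of 41388 genes in the files, 13973 had enough counts to test, and 4271 of these (30.6%) differed between Htt-72Q and control vector at a Benjamini-Hochberg adjusted p under 0.05 in edgeR's quasi-likelihood test. Among the tested genes, 12.8% were higher (1786 genes) and 17.8% were lower (2485 genes). These are the background shares against which each gene group below is read. Most differences were of moderate size: 1507 of the genes that passed (35.3%) changed less than 1.5-fold and 1486 (34.8%) by 1.5 to 2-fold, while 1278 genes (9.15% of those tested) changed at least 2-fold, 370 higher (2.65%) and 908 lower (6.5%). Only 42 changed 8-fold or more, 29 higher and 13 lower. In 4150 of the 4271 genes (97.2%) all 4 pairs moved in the same direction. Among all tested genes, with those that passed included, 47.5% had 4 of 4 pairs on one side. The test was fitted on these same pairs, so this agreement is no separate support for it. In 3350 genes (24% of those tested) all Htt-72Q libraries lay on one side of all control libraries, 1374 of them higher (9.83%) and 1976 lower (14.1%). For 3621 genes (25.9%) the 95% interval of the log2 fold change lay within 0.5 of 0, so that they differed by less than about that size. A further 6085 genes neither passed the test nor had so narrow an interval. Without the pairing 2595 genes passed. Scaling by upper quartiles or by library totals in place of TMM factors moved the share of higher genes among those that passed from 41.8% to 53.1% or 56.1%, since it moved the median log2 fold change of all genes from 0.016 to 0.093 or 0.11.

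**Figure D1:**
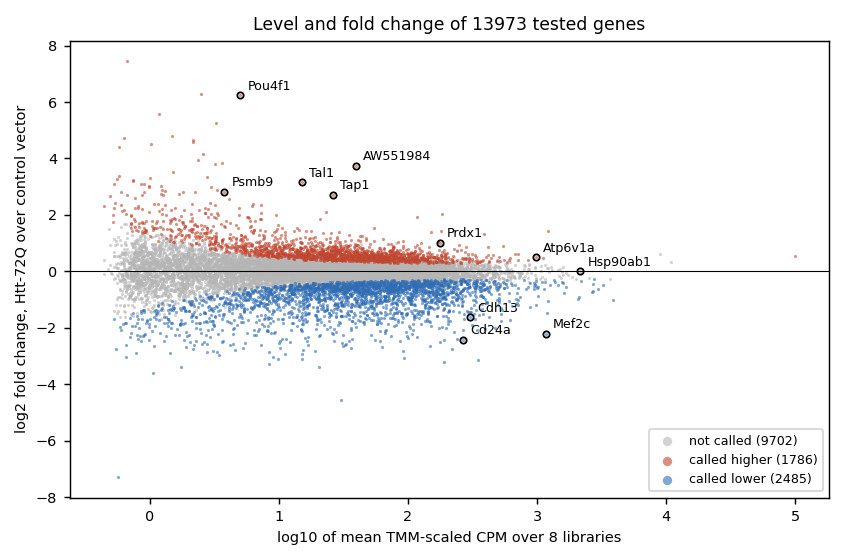
Log2 fold change of Htt-72Q over control vector (vertical axis) against the log10 of the mean TMM-scaled CPM of the 8 libraries (horizontal axis), 1 point per tested gene, red for 1786 genes called higher, blue for 2485 called lower and grey for the rest. Lower genes are spread over the whole range of levels, while the few genes above a log2 fold change of 4 all lie at low levels.

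The largest losses of transcripts, counted as CPM, included cytoskeletal and signalling genes that neurons express in bulk. Mef2c, Map1b, Tuba1a, Tubb5, Dpysl3, Gpm6a, Adcy1, Actb and Dpysl2 were among the 10 largest losses. Tubb5, which young neurons use as a beta-tubulin, fell from 2769 ± 235 to 1416 ± 245 CPM (SD, n = 4 each). The collapsin response mediators Dpysl3 and Dpysl2, which bind tubulin in growing axons, fell by 0.90 and 0.46 on the log2 scale. Tuba1a fell by 0.72 with overlapping groups, since control 22 (1784 CPM) lay within the Htt-72Q range of 1607 to 2354 CPM. Tubulin and actin genes have near-identical copies, and how the authors' counting treated reads that fit several of them is not given in the sources used here.

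Gains in CPM were led by the mitochondrial ribosomal RNA mt-Rnr2 and the RNase P RNA Rpph1, structural RNAs whose levels varied widely between control libraries (58734 to 135075 CPM and 97 to 1801 CPM) and whose groups overlapped. Neither passed the test without the pairing (adjusted p = 0.201 and adjusted p = 0.322). The protein-coding genes with the largest gains in CPM were Zwint, Atp6v1a, Inpp5f, Ctsd, Gabarapl1, Sqstm1, Peg3 and Uchl1. Inpp5f encodes a phosphoinositide phosphatase of endosomes. Its level was 162, 233, 258 and 239 CPM in control and 427, 494, 700.2 and 603 CPM in Htt-72Q. All 4 pairs rose and the groups did not overlap (log2 fold change 1.32 ± 0.10, adjusted p = 7.69e-06). Ctsd, the gene of the lysosomal protease cathepsin D, rose from 383 ± 68.8 to 701 ± 49.1 CPM (SD, n = 4 each). Sqstm1, which encodes the autophagy receptor p62, rose by 0.62 ± 0.10 and Gabarapl1, which encodes an autophagosome protein, by 0.62 ± 0.10 (SE), the latter with overlapping groups and an adjusted p of 0.0764 without the pairing.

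The smallest p-values among lower genes belonged to Cd24a, Plxnd1, Rgs4, Ccn3, Pdzrn3, Nwd2, Sla and Mef2c. Plxnd1 encodes the semaphorin receptor plexin D1. It lay at 204, 169.7, 110.1 and 155 CPM in control and at 24.8, 25.3, 17.3 and 22.8 CPM in Htt-72Q. The lowest control library was above the highest Htt-72Q library by a wide margin, with a log2 fold change of -2.81 ± 0.12 (adjusted p = 4.14e-07). Cd24a, which encodes a small glycoprotein of the surface of young neurons, fell by 2.43 ± 0.10, and Pdzrn3, a ubiquitin ligase gene, by 3.05 ± 0.13. Among higher genes the smallest p-values were those of AW551984, Tal1, Tap1, Zcchc12, Pou4f1, Phlda3, Spint2 and Irs4. AW551984 lay at 8.24, 4.83, 4.67 and 4.46 CPM in control and at 74.2, 80.1, 67.2 and 72.2 CPM in Htt-72Q. The 4 Htt-72Q libraries were close to each other and far above control (log2 fold change 3.75 ± 0.18, adjusted p = 4.71e-07). Tal1, a basic helix-loop-helix factor gene of blood and of some midbrain and spinal cord neurons, lay at 2.88, 2.72, 2.54 and 4.05 CPM in control and rose to 25.1, 28.2, 22.9 and 31.7 CPM (log2 fold change 3.15 ± 0.16). Spint2, which encodes an inhibitor of serine proteases, rose from 9.01 ± 1.19 to 32.6 ± 3.41 CPM (SD, n = 4 each).

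Beyond single genes, 33 lists of functionally related genes were counted (a gene on several lists counts in each). The lists were chosen with earlier results of these data known. Their shares are therefore a description beside the background and no test of the lists. Lists of surface, signalling and matrix genes held the largest shares of lower members. The nuclear transport and splicing lists held the smallest shares of members called in either direction. This did not hold for all core machinery, since ubiquitin genes had 13 of 58 higher and 5 lower.

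**Figure D2:**
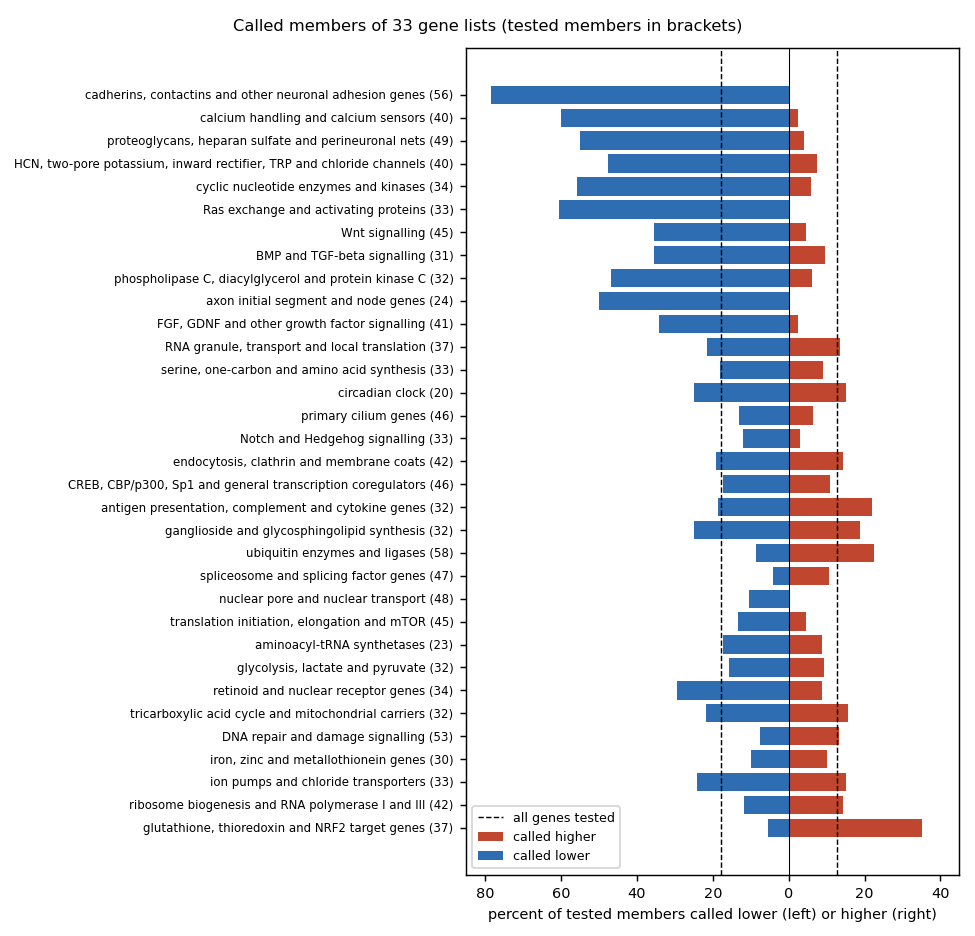
Percent of the tested members of each of 33 gene lists that were called lower (blue, to the left) or higher (red, to the right) in Htt-72Q, with the number of tested members in brackets and dashed lines at the shares among all tested genes (17.8% and 12.8%). The adhesion list reaches 78.6% lower, and the list of glutathione, thioredoxin and NRF2 target genes reaches 35.1% higher.

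Neuronal adhesion genes had the highest share of lower members. Of 56 tested cadherins, contactins, protocadherins, Slitrk and related genes, 44 were lower and 0 higher (78.6% against 17.8% of all tested genes), with a median log2 fold change of -0.74 against 0.016 over all tested genes. Between 37 and 44 members were lower when 1 preparation was left out. Cdh13, the gene of T-cadherin, a cadherin held in the membrane by a lipid anchor, lay at 516, 458, 328 and 530.3 CPM in control and at 189, 157, 104 and 150.5 CPM in Htt-72Q. The groups did not overlap, and the log2 fold change was -1.62 ± 0.11 (adjusted p = 2.26e-06). Cdh8, a classical cadherin of cortical synapses, fell by 1.66 ± 0.11 and Ntm, which encodes the GPI-anchored neurotrimin, fell by 1.43 ± 0.10. In all, 12 of the 16 tested genes whose symbols begin with Cdh fell. The losses covered homophilic cadherins (Cdh2, Cdh4, Cdh6, Cdh7, Cdh10, Cdh11, Cdh12, Cdh20, Cdh22), axonal immunoglobulin proteins (L1cam, Chl1, Nrcam, Ncam1, Cntn1, Cntn3, Cntn5, Cntn6) and synaptic organisers of the Slitrk family (Slitrk1 to Slitrk5, 5 of 5 lower).

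Calcium handling was the next list by its median. Of 40 tested genes of calcium sensors, pumps and stores, 24 were lower and 1 was higher (median log2 fold change -0.70). Calb1 encodes calbindin, a calcium buffer. Its level was 76.1, 92.4, 122 and 143 CPM in control against 17.3, 18.3, 31.1 and 37.1 CPM in Htt-72Q. Each Htt-72Q library was at well under the lowest control (log2 fold change -2.09 ± 0.12, adjusted p = 1.22e-06). Necab1, which encodes another EF-hand protein, fell from 290.4 ± 36.1 to 74.3 ± 12.2 CPM and Camkk2, the kinase that activates CaM kinases I and IV and AMPK, from 192 ± 23.8 to 69 ± 12.8 CPM (SD, n = 4 each). Genes of several steps fell. The calcineurin catalytic subunit Ppp3ca fell by 1.01 ± 0.10 and the ryanodine receptor Ryr2 of internal stores by 1.2 ± 0.15. The plasma membrane pump Atp2b2 fell by 1.09 ± 0.10 and the mitochondrial uniporter Mcu by 0.89 ± 0.12. Another 15 members were not called, among them Stim1, Stim2 and Orai2. The only higher member was Slc8a3, a sodium-calcium exchanger. Slc8a3 rose from 41.5 ± 6.91 to 56.1 ± 3.5 CPM (log2 fold change 0.45 ± 0.12, adjusted p = 0.0141). It did not pass the test without preparation 24.

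**Figure D3:**
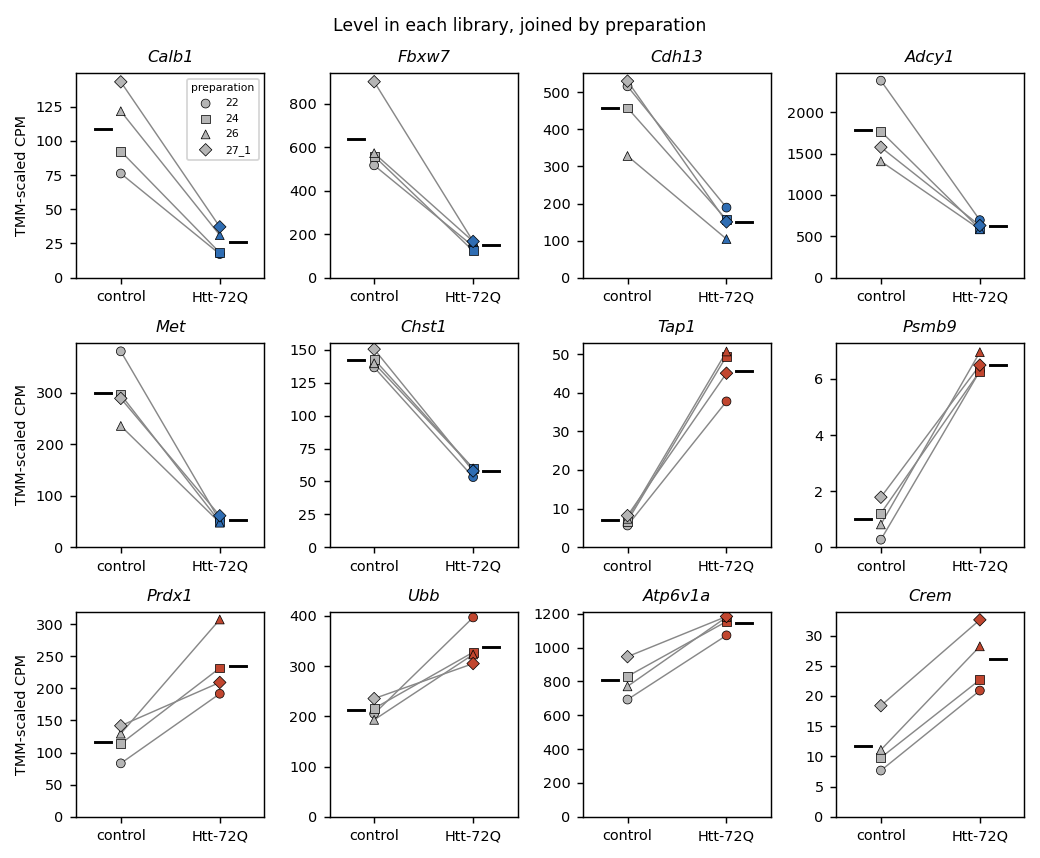
TMM-scaled CPM of 12 genes in each library, control vector at the left (grey) and Htt-72Q at the right (blue where lower, red where higher) of each panel, with lines joining the libraries of 1 preparation, symbols for the preparation and black bars at the group means; every vertical axis starts at 0. In each of the 12 genes the Htt-72Q libraries all lie on one side of the control libraries.

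Enzymes that make and read second messengers moved the same way. Among 34 tested genes of cyclic nucleotide synthesis, breakdown and response, 19 were lower and 2 higher (median log2 fold change -0.49). Adcy1 encodes an adenylyl cyclase that calcium activates. It lay at 2380.0, 1767, 1406 and 1576 CPM in control and at 695, 589, 584 and 630.1 CPM in Htt-72Q. The control libraries spread widely, with control 22 the highest, and all 4 were above Htt-72Q (log2 fold change -1.49 ± 0.11, adjusted p = 5.28e-06). Both subunits of the nitric oxide receptor guanylyl cyclase fell, Gucy1a1 by 1.68 ± 0.10 and Gucy1b1 by 1.36 ± 0.11. Pde1a, a phosphodiesterase that calcium activates, fell by 1.57 ± 0.14, while Prkar1a, a regulatory subunit of protein kinase A, rose from 518 ± 39.0 to 692 ± 68.5 CPM (SD, n = 4 each). Neither of the 2 higher genes passed the test without preparation 24. In the phospholipase C and diacylglycerol list 15 of 32 tested genes were lower and 2 higher. The diacylglycerol kinases, which end diacylglycerol signals, split: Dgkh fell by 1.66 ± 0.12, Dgkz by 1.41 ± 0.12 and Dgkd also fell, whereas Dgkb rose from 15.2 ± 1.24 to 34.8 ± 5.98 CPM (log2 fold change 1.19 ± 0.14, adjusted p = 0.000114).

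Regulators of small GTPases fell as well. Of 33 tested Ras and Rap exchange factors, activating proteins and Ras genes, 20 were lower and 0 higher (median log2 fold change -0.48). Rasgrf2, an exchange factor that calcium activates, lay at 179, 179, 136 and 204 CPM in control and at 61.9, 63.7, 60.6 and 70.8 CPM in Htt-72Q. The Htt-72Q libraries lay close together below all controls (log2 fold change -1.43 ± 0.11, adjusted p = 6.96e-06). Rasal1, a GTPase-activating protein that calcium brings to the membrane, fell by 1.56 ± 0.13 and Rapgef5, an exchange factor for Rap, by 1.67 ± 0.15. Kalrn, which encodes kalirin, an exchange factor of dendritic spines, fell from 405 ± 73.8 to 142 ± 14.8 CPM, and Tiam2, a Rac exchange factor gene, from 69.1 ± 11.3 to 20 ± 3.70 CPM (SD, n = 4 each).

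Ion channels outside the main voltage-gated families were lower in 19 of 40 tested genes and higher in 3 (median log2 fold change -0.56). Kcnj4 encodes a strong inward rectifier. It lay at 122, 181, 136 and 265 CPM in control and at 42.4, 52.2, 64.4 and 65.7 CPM in Htt-72Q, without overlap (log2 fold change -1.6 ± 0.15, adjusted p = 2.2e-05). The leak potassium channel Kcnk9 fell by 1.84 ± 0.18 and the G protein-gated Kcnj3 fell by 1.14 ± 0.12. Ano3, an anoctamin gene, went the other way, from 5.10 ± 0.920 to 14.4 ± 1.98 CPM (SD, n = 4 each, adjusted p = 0.0003). The axon initial segment, where action potentials start, had 12 of 24 tested genes lower and 0 higher (median -0.26), but only 6 without preparation 24, 6 without preparation 26 and 6 without the pairing. Its largest fall was in Kcnq3, a subunit gene of the M-current channel. Kcnq3 lay at 494, 272, 267 and 249 CPM in control and 52.8, 50.8, 46.2 and 83.1 CPM in Htt-72Q. The groups were far apart, at a log2 fold change of -2.44 ± 0.21 (adjusted p = 1.47e-05). Ank3, the ankyrin that anchors the segment, fell by 0.53 ± 0.16 with overlapping groups, and control 22 (797 CPM) stood apart from the other controls (237 to 311 CPM). Ion pumps and chloride transporters had members in both directions. The sodium pump subunit gene Atp1b1 (log2 fold change -0.57 ± 0.09) and the chloride exporter Slc12a5 fell, and so did Atp6v0e2, a subunit gene of the proton pump of lysosomes and vesicles. The 5 higher members were other subunits or partners of that pump (Atp6v1a, Atp6v1g1, Atp6v1h, Atp6ap2, Atp6v1c1). Atp6v1a lay at 693, 830.0, 771 and 946 CPM in control and at 1072, 1154, 1180.2 and 1184 CPM in Htt-72Q. The lowest Htt-72Q library was above the highest control, with a log2 fold change of 0.51 ± 0.10 (adjusted p = 0.00259). Of the 33 tested members of this list 5 were higher and 8 lower (3 and 4 without preparation 24, 1 and 5 without the pairing).

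The extracellular matrix list covers proteoglycan cores, the enzymes that build and sulfate their sugar chains and the components of perineuronal nets. Of 49 tested genes 27 were lower and 2 higher (median log2 fold change -0.63). Chst1, a keratan sulfate sulfotransferase gene, lay at 137, 143, 139.8 and 151 CPM in control and at 53.3, 59.9, 60.0 and 57.9 CPM in Htt-72Q. Both groups were tight and did not overlap (log2 fold change -1.30 ± 0.10, adjusted p = 8.77e-06). The hyaluronan synthase gene Has3 fell by 1.81 ± 0.17, the chondroitin sulfotransferase gene Chst15 by 2.07 ± 0.21 and the core protein versican (Vcan) fell by 1.24 ± 0.15. Net components with low levels fell too, with overlapping groups: aggrecan (Acan), in which control 27_1 stood above the other controls, and the link protein Hapln1, from 11.8 ± 2.75 to 4.62 ± 4.34 CPM (SD, n = 4 each). Syndecan 2 (Sdc2) rose from 32.0 ± 3.81 to 56.3 ± 13.4 CPM.

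Secreted signals, receptors and their nuclear targets fell more often than they rose. In the Wnt list 16 of 45 tested genes were lower and 2 higher (9 lower without preparation 24 and 10 without preparation 26). The ligand gene Wnt7b lay at 122, 108, 101 and 125 CPM in control and at 38, 45.6, 28.4 and 44.0 CPM in Htt-72Q, with no overlap (log2 fold change -1.56 ± 0.12, adjusted p = 8.77e-06). The ligand genes Wnt9a and Wnt4 fell by 2.60 ± 0.25 and 1.21 ± 0.14, and Axin2, a common target of the pathway, was among the lower members. Of 41 tested growth factor genes, 14 were lower and 1 was higher. Met encodes the receptor of hepatocyte growth factor. It lay at 380.3, 296, 236 and 289 CPM in control and at 51.5, 49.3, 47.6 and 61.2 CPM in Htt-72Q. The loss was large in all 4 pairs (log2 fold change -2.50 ± 0.13, adjusted p = 6.69e-07). In the BMP and TGF-beta list 11 of 31 tested genes were lower and 3 higher. The gene of the secreted antagonist Nbl1 fell by 1.49 ± 0.13, and of the Id genes, inhibitors of basic helix-loop-helix factors, Id2 fell by 1.71 ± 0.20 whereas Id4 rose by 0.60 ± 0.14. Notch and Hedgehog genes had 4 of 33 lower and 1 higher, a smaller share than all tested genes. Their leading member Boc, a Hedgehog co-receptor, fell by 1.10 ± 0.19.

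Nuclear receptors and retinoid enzymes had 10 of 34 tested genes lower and 3 higher, with a median of 0.044. Without preparation 24, 5 were lower and 1 was higher, and without the pairing 6 and 1. Nr2f1 (COUP-TFI), which patterns cortical areas, lay at 113, 120.1, 109 and 138 CPM in control and 45.2, 41.4, 40.2 and 47.9 CPM in Htt-72Q, with no overlap (log2 fold change -1.46 ± 0.11, adjusted p = 5.27e-06). Cyp26b1, which breaks down retinoic acid, fell from 10.5 ± 4.60 to 2.27 ± 1.42 CPM, while Aldh1a2, which makes it, went from 0.0376 ± 0.0451 to 1.11 ± 0.721 CPM (SD, n = 4 each). The receptor gene Rarb rose from 3.48 ± 0.766 to 6.0 ± 1.17 CPM. In the list of CREB, coactivators and general transcription factors 8 of 46 were lower and 5 higher, near the background (5 and 2 without preparation 24, 4 and 6 without preparation 26). Crem, whose products include a repressor of cyclic AMP-driven transcription, lay at 7.65, 9.79, 11.1 and 18.4 CPM in control and 20.9, 22.7, 28.2 and 32.6 CPM in Htt-72Q. The lowest Htt-72Q library was above the highest control (log2 fold change 1.2 ± 0.15, adjusted p = 0.000182). Foxp1, a forkhead repressor gene of upper cortical layers and striatum, fell by 1.85 ± 0.15 and Srf, serum response factor, by 0.59 ± 0.12. All 3 Myc-family genes fell: Mycn fell by 1.6 ± 0.13, Mycl by 1.22 ± 0.14 and Myc by 0.83 ± 0.19. They sit on the ribosome biogenesis list, whose 42 tested members otherwise included 6 higher and 2 more lower genes and whose median was 0.19 (2 higher without preparation 24).

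The list of glutathione, thioredoxin and NRF2 target genes ran against this trend. NRF2 is a transcription factor that switches on enzymes against oxidants and electrophiles. Of 37 tested members 13 were higher (35.1% against 12.8% of all tested genes) and 2 lower, with a median log2 fold change of 0.33. Between 9 and 17 were higher when 1 preparation was left out, and 7 without the pairing. Prdx1, which encodes a peroxiredoxin that removes hydrogen peroxide, lay at 83.2, 114, 129 and 142 CPM in control and at 192, 232, 307 and 209 CPM in Htt-72Q. The groups did not overlap (log2 fold change 1.01 ± 0.13, adjusted p = 0.000186). The other higher members were peroxide and superoxide enzymes (Gpx1, Sod2, Prdx2, Prdx5, Prdx6), thioredoxin system genes (Txn1, Txnip, Srxn1), glutathione enzymes (Gsr, Gsta4) and the inducible genes Hmox1 and Nqo1. Gpx1 rose by 0.92 ± 0.14, heme oxygenase 1 (Hmox1) from 23.1 ± 5.38 to 39.8 ± 3.70 CPM and Nqo1 from 1.87 ± 0.572 to 4.47 ± 1.02 CPM (SD, n = 4 each). Other textbook NRF2 targets did not pass the test: the log2 fold changes were 0.13 ± 0.11 for Gclc, 0.18 ± 0.18 for Gclm and 0.17 ± 0.13 for Slc7a11, whose 95% intervals end at 0.38, 0.58 and 0.47. Catalase (Cat) fell by 0.48 ± 0.15 with overlapping groups and G6pdx, which supplies NADPH, by 0.89 ± 0.17.

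Promoter letters were compared in RefSeq windows from 250 bases before to 50 after the start (build GRCm38.p6), which matched 10651 of the 13973 tested genes. The NRF2 letters TGACNNNGC on either strand were in 9 of the 32 matched members of that list and in 2 of its 9 matched higher members (Prdx1 and Srxn1), against 14.6% of all matched promoters. The Prdx1 window holds, at chr4:116685457-116685485 on the plus strand, the following 29 bases, shown because the capitals mark letters of the AP-1 motif TGANTCA, which overlap a match of the NRF2 letters. AP-1 letters were in 4.18% of all matched promoters.
Prdx1: agggaaagcgcTGAGTCAtcccccgtagg

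The motif with the largest gap between higher and lower genes was that of ETS factors, CCGGAAG on either strand. It was in 17.7% of all matched promoters, in 23.2% of those of higher genes (328 of 1413) and in 8.69% of those of lower genes (160 of 1842). Among genes at least 2-fold higher the share was 12.9% (37 of 287), below that of all promoters, and among those at least 2-fold lower it was 4.02%. Among genes in the shortest 3 of 5 bins of genomic span the shares were 25.1% and 9.96%, and in the longest bin 20.1% and 5.39%. These promoters of higher genes carry it, with the motif in capitals, each read 5′ to 3′ on the strand of its gene. They lie at chr17:23677493-23677521 (minus strand), chr1:53297084-53297112 (minus), chr17:33951516-33951544 (minus) and chr2:181601329-181601357 (plus) and show the letters in either orientation.
Tnfrsf12a: agcgctccgccCCGGAAGgcgggggcggg
Pms1: gcgccccaccgCTTCCGGaaggctgccaa
B3galt4: ccgcttgtcggCTTCCGGcctagagaggc
Prpf6: ccagctctctaCTTCCGGtgcgcgggtga
Tnfrsf12a, the receptor of the cytokine TWEAK, lay at 0.99, 2.42, 4.22 and 4.29 CPM in control and at 7.67, 10.5, 13.3 and 14.6 CPM in Htt-72Q, without overlap (log2 fold change 2.07 ± 0.24, adjusted p = 9.97e-05). Pms1, a mismatch repair gene, rose by 0.87 ± 0.17, the ganglioside galactosyltransferase gene B3galt4 by 1.26 ± 0.21 and the splicing factor gene Prpf6 by 0.55 ± 0.12. The CRE letters TGACGTCA were in 3.36% of all, 4.03% of higher and 2.33% of lower promoters, and TATAAA (either strand) in 12.7% of the promoters of genes at least 2-fold lower against 6.7% of all. Matches are counts of letters, and binding was not measured.

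A gene that helps to cut peptides for MHC class I and genes that carry and load them rose, while the class I light chain fell. Tap1 encodes a subunit of the peptide transporter into the endoplasmic reticulum. It lay at 5.63, 6.77, 7.37 and 8.18 CPM in control and at 37.8, 49.5, 50.7 and 45.1 CPM in Htt-72Q. All 4 pairs rose strongly (log2 fold change 2.72 ± 0.14, adjusted p = 6.69e-07). Its neighbour Psmb9 (chromosome 17, 34181988 to 34187764, minus strand), an immunoproteasome subunit gene, lay at 0.27, 1.21, 0.813 and 1.78 CPM in control and at 6.28, 6.28, 6.96 and 6.49 CPM in Htt-72Q. Again no library of one group reached the other (log2 fold change 2.83 ± 0.38, adjusted p = 0.00028). The gene models of Tap1 (34187553 to 34197225, plus strand) and Psmb9 overlap at their starts, and whether counting used strand is not given, so reads from that stretch cannot be told apart. Psmb8, another immunoproteasome subunit gene, was called in neither direction. Tap2 rose by 1.54 ± 0.36 and tapasin (Tapbp), which loads the peptides, by 1.05 ± 0.18. By contrast beta-2 microglobulin (B2m) fell from 31.2 ± 4.68 to 16.5 ± 5.30 CPM (SD, n = 4 each, log2 fold change -0.95 ± 0.19, adjusted p = 0.00347), and the heavy chains H2-K1 (0.06 ± 0.14) and H2-D1 (0.18 ± 0.13) did not pass the test. Of the 32 tested genes on this list, which also holds complement and cytokine genes, 7 were higher and 6 lower. The others were Tnfrsf12a (values above), Fas, a death receptor (0.131 ± 0.104 to 1.36 ± 0.744 CPM), and Cd55, an inhibitor of complement, among the higher, and the chemokines Cxcl12, Cx3cl1 and Ccl25 with Tnfrsf19 and Cd47 among the lower. Markers of microglia, an immune cell that carries this machinery, summed to 11.1 to 26.0 CPM in control and 16 to 38.2 CPM in Htt-72Q, with 1 of 2 tested markers higher; their part in these values was not tested.

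Ubiquitin genes had more higher members than the background, 13 of 58 tested (22.4% against 12.8%), and 5 lower. This count was not stable: it was 5 without preparation 24, 5 without preparation 26 and 4 without the pairing. The median log2 fold change was -0.012 and turns positive with upper-quartile or library-total scaling. The change with the smallest p was a loss. Fbxw7 encodes the substrate receptor of a ubiquitin ligase that marks Myc, cyclin E and Notch for breakdown. It lay at 516, 559, 572 and 900.5 CPM in control and at 144, 123, 167 and 167 CPM in Htt-72Q. The Htt-72Q libraries were tightly grouped far below the controls, with a log2 fold change of -2.06 ± 0.13 (adjusted p = 1.83e-06). The conjugating enzyme gene Ube2ql1 fell from 188 ± 18.1 to 69 ± 9.10 CPM. Ubb, one of the polyubiquitin genes induced by stress, lay at 205, 216, 193 and 235 CPM in control and at 397, 327, 323 and 305 CPM in Htt-72Q. The groups did not overlap (log2 fold change 0.67 ± 0.11, adjusted p = 0.00135). Uchl1, a neuronal deubiquitinase gene, rose by 0.41 ± 0.09 with overlapping groups, and did not pass the test without preparation 24 (adjusted p = 0.0555).

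**Figure D4:**
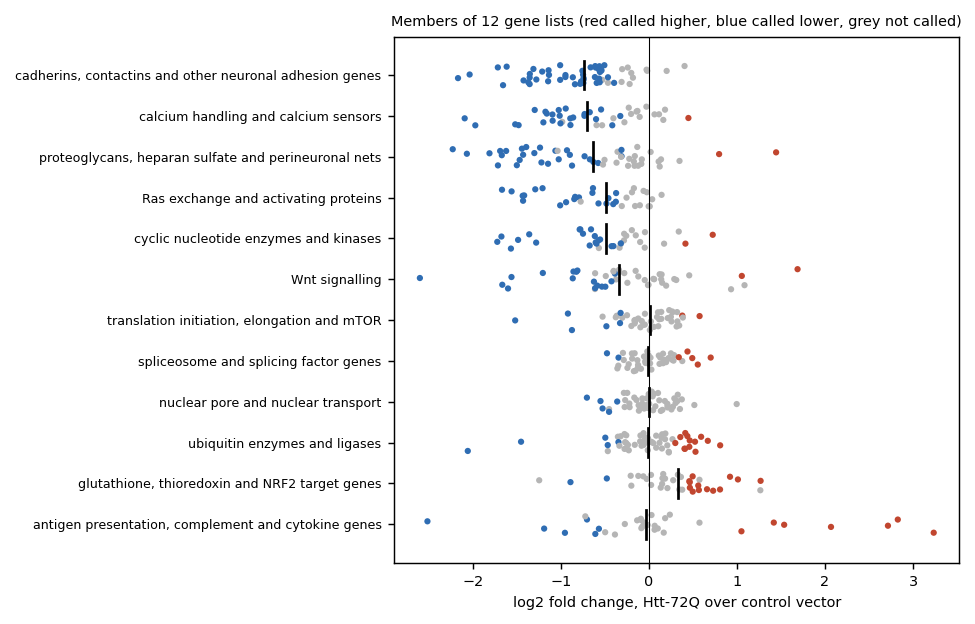
Log2 fold change of Htt-72Q over control vector (horizontal axis) for each tested member of 12 of the lists (rows), red for called higher, blue for called lower, grey for not called, with a black bar at the list's median and points spread vertically for legibility. The medians run from -0.74 for adhesion genes through values near 0 for splicing, nuclear transport and translation genes to 0.33 for glutathione, thioredoxin and NRF2 target genes.

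Several lists of general machinery stayed near 0. Of 47 tested spliceosome and splicing factor genes 5 were higher and 2 lower, with a median log2 fold change of -0.0077, and 24 had a 95% interval within 0.5 of 0. Nuclear pore and transport genes had 0 of 48 higher and 5 lower, and 26 had so narrow an interval. Those that fell were transport receptors (Cse1l, Ipo5, Tnpo1, Kpna3) and Nup155. Translation and mTOR genes had 2 of 45 higher and 6 lower, led by the kinase genes Rps6ka2 (-1.52 ± 0.13) and Eef2k (-0.88 ± 0.11), which regulate translation rather than carry it out. When 1 preparation was left out, splicing genes had 2 to 7 higher and 0 to 2 lower, nuclear transport genes 0 to 3 and 3 to 5, and translation genes 0 to 6 and 4 to 6. DNA repair genes had 7 of 53 higher and 4 lower (2 higher without preparation 24). Parp1, which senses strand breaks, lay between 137 and 149 CPM in control and between 84.8 and 92.8 CPM in Htt-72Q, a fall of 0.67 ± 0.10 without overlap, while Brca1 rose from 5.55 ± 1.25 to 9.29 ± 0.626 CPM (SD, n = 4 each). Highly expressed genes whose 95% interval lay within 0.5 of 0 included the chaperone gene Hsp90ab1 (0.0090 ± 0.10, 2159 ± 153 against 2172 ± 133 CPM), the elongation factor gene Eef2 (-0.098 ± 0.13) and the dynein heavy chain gene Dync1h1 (-0.20 ± 0.10). The spectrin gene Sptan1 is among them and also passed the test (-0.26 ± 0.09, adjusted p = 0.0457), which it did not under most other settings.

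Metabolic lists were mixed. Glycolysis had 3 of 32 tested genes higher and 5 lower. Its lower count was 3 without preparation 22, 1 without preparation 24 or 26, 2 without preparation 27_1 and 1 without the pairing, and its higher count ran from 1 to 7 when 1 preparation was left out. The balance also turned with the scaling: 5 were higher and 2 lower with upper quartiles, and 9 and 2 with library totals. The phosphofructokinase gene Pfkl rose by 0.60 ± 0.13, while Slc16a7, a lactate transporter gene of neurons, fell by 1.04 ± 0.16 and neuronal enolase (Eno2) by 0.35 ± 0.11. The citric acid cycle and carrier list had 5 higher and 7 lower of 32 (2 higher without preparation 22, 24 or 26, 4 lower without preparation 24 and 3 without preparation 26, and 1 higher without the pairing), with the citrate carrier gene Slc25a1 falling by 0.62 ± 0.11. Among serine and one-carbon genes 6 of 33 fell, but 1 without preparation 24. They included the amino acid transporter gene Slc7a5 (-0.72 ± 0.10), Mthfd2 and Asns, while the folate enzyme gene Shmt1 rose by 0.99 ± 0.21. Of 23 tRNA synthetase genes 4 fell, with Vars at -0.87 ± 0.11 and Cars at -0.74 ± 0.14, and 2 rose. Without preparation 22, 8 were lower, and without preparation 24, 2 were. None was higher without preparation 22, 24 or 26 or without the pairing, and 4 were without preparation 27_1. The ganglioside and sphingolipid list had 6 of 32 tested genes higher and 8 lower, with synthesis genes in both directions. Asah1 (acid ceramidase) rose from 43.2 ± 7.90 to 75.3 ± 7.48 CPM, and Gla and Neu1 rose by 0.72 ± 0.13 and 0.61 ± 0.13. The sphingomyelinase gene Smpd3, which acts at the plasma membrane, fell from 266 ± 43.9 to 121 ± 8.71 CPM (SD, n = 4 each), together with the ganglioside synthesis genes B4galnt1, St8sia1 and St3gal2, whereas B3galt4 and the ceramide synthesis genes Degs1 and Cers5 rose. Without preparation 26 the list had 3 lower members in place of 8, without preparation 24 it had 4 and without the pairing 3.

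Clock, cilium, RNA granule, endocytosis and metal lists had shares near the background, and single members changed by more. The clock repressor Cry1 rose from 18.7 ± 5.42 to 34.2 ± 5.03 CPM and the repressor Nfil3 fell by 1.02 ± 0.15. Bbs9, a subunit of the ciliary BBSome, rose by 1.06 ± 0.13, whereas Bbs2 of the same complex fell by 1.11 ± 0.15. Igf2bp1 and Lin28b, RNA-binding proteins of embryonic cells, rose from 0.310 ± 0.165 to 2.14 ± 0.629 CPM and from 1.93 ± 0.303 to 4.57 ± 0.926 CPM. Cpeb1, which regulates polyadenylation of stored messenger RNA, rose by 1.17 ± 0.16. The huntingtin-interacting endocytic gene Hip1 fell by 0.60 ± 0.12 and the clathrin light chain gene Cltb rose by 0.60 ± 0.10. Slc30a3, which loads zinc into synaptic vesicles of glutamate neurons, fell by 1.72 ± 0.19.

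Grouping all tested genes by the start of their symbol, without regard to the lists, gave 80 groups of at least 15 genes. Those with the largest shares of lower genes were Cdh (12 of 16), Mapk (10 of 17), Arhgap (13 of 26), Dusp (10 of 20) and Sema (10 of 20). In the same order 0, 1, 2, 0 and 0 of their members were higher. The shares of Mapk, Arhgap, Dusp and Sema dropped to 6 genes each without preparation 24, while Cdh had 11 or 12 in each fit that left out a preparation. The groups with the largest shares of higher genes were histones (Hist, 23 of 52), general transcription factors (Gtf, 7 of 21), Sec (8 of 24), sorting nexins (Snx, 9 of 28) and Mediator subunits (Med, 9 of 29). In the same order 2, 0, 3, 5 and 2 of their members were lower. Sorting nexins thus moved in both directions, with 5 or 6 lower in each fit that left out a preparation. Sorting nexins had 8 to 10 higher when 1 preparation was left out and 6 without the pairing. Histones had 11 higher without preparation 24, 12 without preparation 26 and 6 without the pairing, Gtf genes 1, 2 and 2, Mediator genes 3, 4 and 3 and Sec genes 3, 3 and 4. Without preparation 22, 15 histone and 5 Mediator genes were higher. Members named in the lists and families beyond the 3 with the smallest p in each were chosen after their values were seen. Histone genes are short, near-identical and mostly not polyadenylated, so their counts depend on how reads that fit several copies were assigned.

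Lower genes were longer than higher ones. In the 2795 genes with the longest genomic span (76.3 to 2961 kb), 34.8% were lower and 7.19% higher, with a median log2 fold change of -0.22. In the 2795 with the shortest (0.057 to 7.30 kb), 10.4% were lower and 15.2% higher (median 0.12). The pattern was present at matched levels: among the fifth of genes with the highest mean CPM, 49.5% of those with the longest span were lower, against 14.6% of those with the shortest. The adhesion list had 40 of its 56 members in the longest bin, where 80% were lower, and 75% of its other 16 members were lower as well. Of calcium genes 57.1% in the longest bin and 63.2% in the other bins were lower, and of Ras regulators 50% and 68.4%. Wnt genes (28.6% and 38.7%), BMP and TGF-beta genes (18.2% and 45%) and initial segment genes (42.9% and 60%) had the same order. Cyclic nucleotide genes had 56% and 55.6%. In the phospholipase C, matrix, channel and growth factor lists the share was smaller outside the longest bin. It was 61.1% and 28.6% for phospholipase C, 68% and 41.7% for matrix, 60% and 40% for channel and 50% and 21.7% for growth factor genes.

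**Figure D5:**
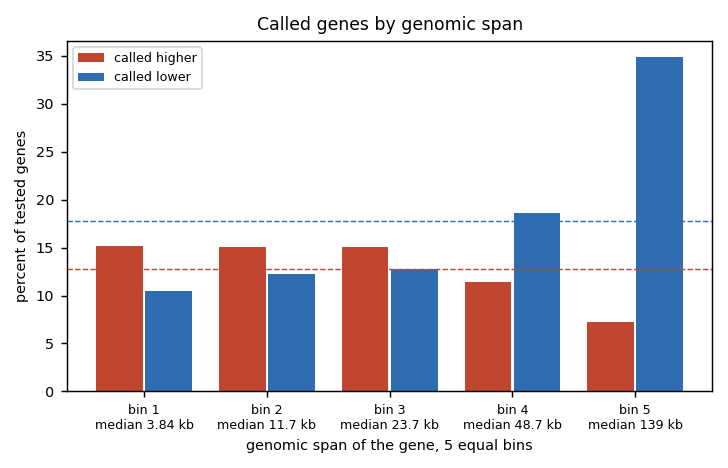
Percent of tested genes called higher (red) and lower (blue) in 5 equal bins of genomic span, with dashed lines at the shares over all tested genes. The lower share climbs from 10.4% in the shortest bin to 34.8% in the longest, while the higher share drops from 15.2% to 7.19%.

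Markers of cell types were summed in each library, since a bulk library cannot tell fewer cells of a type from less RNA per cell. The labelled cell type was present: excitatory cortical neuron markers summed to 938 to 1131 CPM in control and 431 to 640 CPM in Htt-72Q. Of these 10 markers 9 were lower and 1 higher, the vesicular glutamate transporter gene Slc17a6, which changed by 0.35 ± 0.11 with overlapping groups. Inhibitory neuron markers summed to 228 to 295 CPM and 113 to 174 CPM, with 5 of 9 tested markers lower. Astrocyte markers (2788 to 3338 and 2567 to 2983 CPM) and oligodendrocyte markers (601 to 777 and 579 to 688 CPM) overlapped between groups, with 1 of 10 lower in each. Progenitor and dividing-cell markers summed to 708 to 868 CPM and 838 to 1131 CPM, with 3 of 9 tested markers higher and Mki67 at -0.014 ± 0.20. Fibroblast and mural markers went from 32.9 to 111 CPM to 11.7 to 22.1 CPM, with 3 of 5 tested markers lower. These were Fn1, Postn and Rgs5. Fn1 was at 64.4 CPM in control 22 and at 10.5 to 17.2 CPM in the other controls. Rgs5 stayed under 2.3 CPM. Pdgfrb and Dcn were not called (log2 fold changes -0.15 and -1.15). Col1a1, Col1a2, Col3a1, Lum and Acta2 had too few counts to test. Endothelial markers stayed under 5 CPM. No marker was at 0 in all 8 libraries. Neuron markers thus moved with the neuronal gene groups above, and their part in those counts was not tested.

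Htt-25Q libraries, with the short repeat, came from preparations 22, 24, 27_1 and 27 and were compared with less complete pairing. Preparation 26 has no Htt-25Q library and preparation 27 has no other library. With preparation as a block, the Htt-25Q library of preparation 27 therefore adds nothing to the fitted differences below. These rest on the Htt-25Q libraries of preparations 22, 24 and 27_1, while the Htt-25Q levels below include all 4. In preparations 22 and 24 the Htt-25Q libraries lay on the high side of the Ctnnd1 gap. The Htt-72Q libraries of both preparations lay on the low side, as did control 24. The part of these limits in the counts below was not tested. In 1 fit of 12 libraries with preparation as a block, no gene of 14707 passed the test between Htt-25Q and control vector (edgeR, 603 or 4.1% at an unadjusted p under 0.05), while 3120 (21.2%) passed between Htt-72Q and Htt-25Q; both comparisons share libraries with the one described here, so they are no independent evidence. Fbxw7 was at 712 ± 195 CPM, Met at 296 ± 38.4 CPM and Cdh13 at 441 ± 83.6 CPM in Htt-25Q (SD, n = 4), each near its control level. Tap1 was at 8.19 ± 1.85 CPM and Prdx1 at 119.7 ± 4.49 CPM in Htt-25Q, and Htt-72Q exceeded these by 2.48 ± 0.16 and 0.85 ± 0.15 (adjusted p = 9.04e-07 and adjusted p = 0.00164). Plxnd1 and Adcy1 had Htt-25Q levels between the other groups, at 114 ± 38.6 and 1422 ± 259 CPM, with log2 fold changes of -0.66 ± 0.22 and -0.37 ± 0.17 against control that did not pass the test (adjusted p = 0.847 for each).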

How the data were processed

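RNA-seq counts per gene were deposited by the authors beside CPM and RPKM values. Per the submitters' processing notes, STAR 2.0.4b, Subread and featureCounts 1.45 were used with GRCm38; the sources used here do not give the strand setting, the treatment of multi-mapped reads or the annotation version. Each sample is 1 library whose lanes were merged, per the labels. The deposited CPM and RPKM values follow from the counts within 5.09e-10 and 3.20e-10, so the raw counts were analysed.

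Counts of 8 libraries were fitted with edgeR 4.0.16 (R 4.3.3, quasi-likelihood test, TMM scaling, filterByExpr with a minimum count of 10) on preparation and group, with 3 residual degrees of freedom and Benjamini-Hochberg adjustment over 13973 genes; a gene was called at an adjusted p under 0.05. Unless named otherwise, adjusted p-values are from this edgeR fit, ± after a log2 fold change is its SE, and levels are TMM-scaled CPM. The pairing comes from the preparation numbers in the labels: residuals of same-numbered libraries correlated at 0.49, 0.25, 0.38 and 0.29, and of other pairs at -0.56 to 0.079. The scripts were tested on simulated data. Alternatives included DESeq2 1.42.0 and limma 3.58.1.

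Named genes are Htt, the 10 largest gains and losses in CPM, the 8 smallest p in each direction at 1 CPM or more, the 3 called members with the smallest p of each list, and the 5 genes of highest CPM whose interval lies within 0.5 of 0; further members were named after their values were seen. The comparison, the gene lists and the motif search were chosen with earlier results of these data known. Some genes and 1 list are not reported here.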

Additional observations from a re-analysis of the deposited data

Results flagged for a closer look

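Of 140 named genes, 6 had 1 pair whose log2 difference (Htt-72Q minus control, CPM plus 0.5) stood apart from the other 3 by Dixon's criterion for 4 values, which chance meets in about 1 of 20 groups. In each of the 6 all 4 pairs were lower.

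Preparation 26 showed the smaller loss in 3 of them. For Dpysl3 its difference was -0.649, against -1.02 to -0.968 in the others, for Rasgrf2 it was -1.16, against -1.53 to -1.48, and for Kcnk9 it was -1.12, against -2.06 to -1.99. In preparation 27_1 Necab1 differed by -1.56, against -2.11 to -2.10, and Parp1 by -0.560, against -0.712 to -0.692. Csnk1e, a clock kinase gene, had the larger loss in preparation 24, at -0.640 against -0.553 to -0.543.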

How the results depend on the processing

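The number of genes called between Htt-72Q and control vector, 4271 with the replicate block, was 2595 with no replicate block (897 higher), 2515 with the class of libraries as a term (906 higher, 1609 lower) and 2729 when the fold was tested against 1.2 (964 higher). Of the 4271 genes, 2594 (60.7%) were also called in the same direction without the block. Leaving out 1 preparation gave 2555 to 4202 genes, 899 to 1950 of them higher and 1656 to 2252 lower, and 1118 to 1321 at least 2-fold; each lowest value is without preparation 24. DESeq2 called 4377 and limma voom 4384. Htt was 0.37 with upper-quartile scaling (adjusted p = 0.0450), 0.39 with library totals (adjusted p = 0.0350) and 0.22 to 0.45 leaving out 1 preparation, past the threshold only without preparation 22. The sign turned for Eef2 without preparation 27_1 (-0.22 to 0.093 leaving out 1 preparation) and for Hsp90ab1 with the class as a term (-0.032), no filter (-0.0044) and without preparation 22 (-0.065 to 0.072); neither gene was called. Of the 140 named genes, 11 lost their call without the block, 18 with the class, 9 without preparation 24 and 5 without preparation 26; the causes were not tested. The block changed the counts of lists most where they were small: RNA granule genes had 1 lower in place of 8, and endocytosis genes 1 in place of 8. Medians of 9 lists near 0 (CREB, Notch and Hedgehog, antigen presentation, endocytosis, ganglioside, nuclear pore, cilium, splicing and ubiquitin genes) change sign with the scaling.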
